A study of Nothobranchius furzeri with 24 samples.

Results

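The brains of 4 wild male turquoise killifish (Nothobranchius furzeri) of 108 days post hatch (dph) were compared with those of 4 wild males of 73 dph, across all expressed genes. These 8 libraries, chosen by the age and sex of their labels, are among 24 in the series. All fish came from the population labelled A41 (strain MZM_A41) in Mozambique, were netted from a temporary pond in the hours after sunrise, and carried no treatment or engineered allele. Males of 39 dph and females of 39, 73 and 108 dph, 4 fish in each group, serve as further groups. Each library is the whole brain of 1 fish, and a lower transcript level cannot be told apart from fewer cells of the type that makes it. Because the older fish were also netted later in the year, effects of age and of the date of capture cannot be told apart.

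The turquoise killifish lives in pools that dry within months, and it matures and ages faster than most vertebrates kept in laboratories. In teleost fishes radial glia keep dividing and giving rise to neurons through adult life. The transcription factors SOX4 and SOX11 mark newborn and immature neurons in vertebrates. HSPA5 (BiP) is the main chaperone of the endoplasmic reticulum, and its transcription rises when unfolded proteins build up there.

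Reads assigned to genes numbered 14219725 to 19346170 in the libraries of 108 dph and 16984426 to 18975375 in those of 73 dph. Markers of neurons summed to 4575 to 5422 counts scaled to library size (CPM) at 108 dph and 5096 to 5402 CPM at 73 dph, and for each cell type with markers tested the sums of the 2 ages overlapped. One transcript set some brains apart. The growth hormone gene GH1, the only pituitary marker with a name here, had 4416, 2887, 5.05 and 2.56 CPM in the 4 males of 108 dph, against 2.35, 60.8, 4.46 and 32.6 CPM in those of 73 dph. The glycoprotein hormone subunit genes named CGB1, looked up after GH1 was seen, followed the same fish, with 156, 90.8, 0.206 and 0.114 CPM at 108 dph against 0.313, 0.604, 0.176 and 0.325 CPM at 73 dph for Nfu_g_1_020666. Thus 2 of 4 male brains of 108 dph and 0 of 4 male brains of 73 dph were rich in pituitary hormone transcripts. The log2 fold change of GH1 was 6.19 ± 2.46 (SE), and it was not called (edgeR FDR 0.275). GH1-rich brains were not confined to 108 dph. Males of 39 dph had 3128, 1665, 1.88 and 3.72 CPM of GH1. Females had 6.74, 3.16, 9.17 and 3907 CPM at 39 dph and 2867, 4290, 22.1 and 36.5 CPM at 73 dph. Those of 108 dph had 2.12, 4142, 3.05 and 42.4 CPM. The part of these transcripts in the results below was not tested beyond fits without GH1-rich brains and a fit with GH1 as a covariate.

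The late step in males, from 73 to 108 dph, held few called genes in edgeR over the 12 males. Of 18771 genes tested, 60 (0.32%) passed a false discovery rate (FDR) of 0.05 in edgeR's quasi-likelihood test over the 12 males, 35 higher at 108 dph (0.186%) and 25 lower (0.133%), and 2701 (14.4%) had an unadjusted p below 0.05, 1397 higher and 1304 lower; among genes with a name, from which the lists below are drawn, the share was 19.0%. The smallest FDR was 0.014, so none passed 0.01. Over all genes tested, the log2 fold change was above 0 in 9689 and below 0 in 9082. In all 60 the 4 fish of 108 dph lay wholly above or below the 4 of 73 dph, which held for 7.26% of all genes tested (3.88% above and 3.38% below). Changes were modest: the median size of the log2 fold change was 0.58 among the called genes, only 6 changed more than 2-fold, and 30 changed by less than 1.5-fold. Called genes were also more abundant than most, with a median of 5.44 log2 CPM against 4.21 over all genes tested. The risen genes were longer, with a median length of 4486 bases, against 3269 bases for the fallen genes and 2703 bases over all genes. Over all genes tested the log2 fold change hardly varied with length (Spearman rho 0.013).

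**Figure D1:**
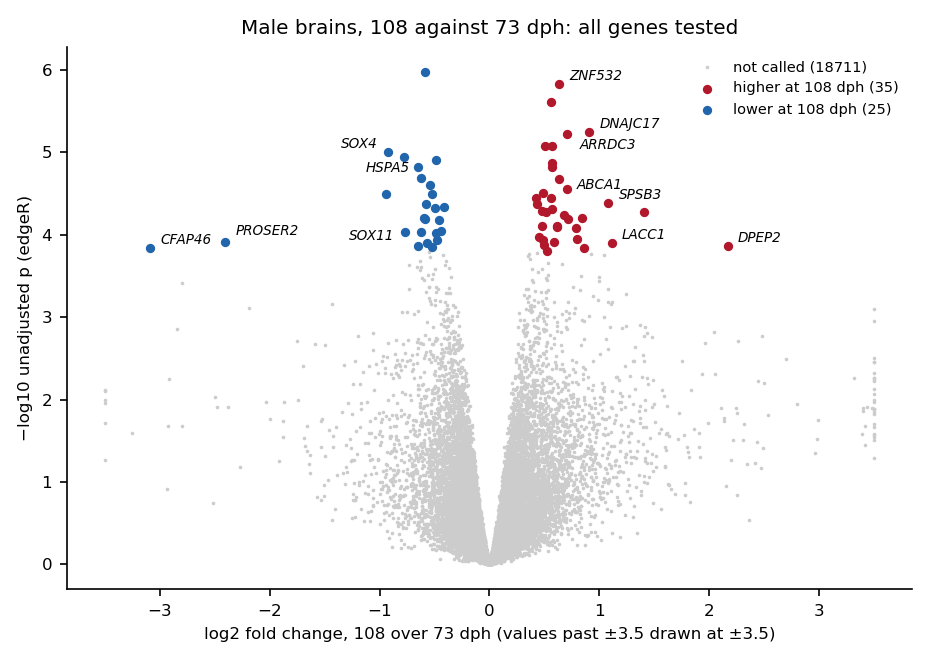
Each point is 1 of 18771 genes, with the log2 fold change of male brains of 108 over 73 dph on the x axis and the unadjusted p of edgeR, as −log10, on the y axis. Red points are the 35 genes higher at 108 dph and blue points the 25 lower at 108 dph at an FDR below 0.05, most of them within a log2 fold change of 1.

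The count depended on which fish entered the fit. With 1 fish left out it ran between 0 and 104, with 0 calls without male 39 dph replicate 2, male 73 dph replicate 3 or 4, or male 108 dph replicate 2, 3 without male 73 dph replicate 2, 4 without male 73 dph replicate 1, 19 and 30 without male 39 dph replicates 3 and 1, 34 without male 108 dph replicate 3, and 104 without male 108 dph replicate 4. The same contrast gave 323 calls (1.67%; 147 higher, 0.759%, and 176 lower, 0.909%) in a fit of all 24 fish, 509 calls (2.79% of 18245 genes; 262 higher, 1.44%, and 247 lower, 1.35%) in DESeq2, and 0 calls from the 8 males alone. The fit of 24 fish held 56 of the 60 genes and DESeq2 all 60. Without the 2 GH1-rich males of 108 dph, 2 genes were called, neither among the 60, whose log2 fold changes shifted by at most 0.28.

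Both genes named SOX4, and SOX11, fell. The first of 2 genes named SOX4, Nfu_g_1_001775, had 11.7, 13.1, 14.8 and 15.8 CPM in males of 108 dph, against 28.4, 20.9, 30.4 and 25.6 CPM in males of 73 dph. Every brain of 108 dph was below every brain of 73 dph, and the log2 fold change was -0.93 ± 0.13 (SE, n = 4 each; edgeR FDR 0.0221). The second copy, Nfu_g_1_012974, fell less, with 26.4, 22.1, 19.26 and 25.1 CPM at 108 dph against 35.8, 30.7, 36.0 and 35.0 CPM at 73 dph (log2 fold change -0.57 ± 0.10, edgeR FDR 0.0452); in the fit of 24 fish its FDR was 0.0543. The related gene SOX11 had 19.0, 27.6, 32.3 and 30.2 CPM at 108 dph, and 41.4, 47.7, 44.7 and 52.3 CPM at 73 dph. Its groups did not overlap either, with the lowest level in male 108 dph replicate 1, and its log2 fold change was -0.77 ± 0.14 (edgeR FDR 0.0396). The GH1-rich replicates 1 and 2 of 108 dph had the lowest levels of that age for SOX11 and for Nfu_g_1_001775. Without those 2 fish the log2 fold changes were -0.57 for SOX11 and -0.77 for Nfu_g_1_001775. That of Nfu_g_1_012974 was then -0.63.

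These 3 were the members called of a list of 36 genes of neurogenesis and newborn neurons, and no member rose past the threshold, where 0.133% of all genes were called lower and 0.186% higher. The list's median log2 fold change was -0.13, against 0.01 over all genes tested, and 12 members were lower and 2 higher at an unadjusted p below 0.05 (38.9%, against 14.4% of all genes). Of the 36, 24 had a log2 fold change below 0 and 12 above, the highest at 0.935. The members named next were not called in the 12 males, all fell, and were chosen with their values known. DLL1 (Nfu_g_1_005168), a Notch ligand of neural progenitors, averaged 4.35 ± 1.02 CPM at 108 dph and 8.43 ± 2.51 CPM at 73 dph (SD, n = 4 each). Its log2 fold change was -0.95 ± 0.27 (edgeR FDR 0.162, and 0.0407 in the fit of 24 fish). NR2E1 (TLX), a nuclear receptor of neural stem cells, averaged 18.2 ± 0.791 CPM at 108 dph and 26.1 ± 6.03 CPM at 73 dph (edgeR FDR 0.129, and 0.0339 in the fit of 24 fish). NEUROG1, a proneural factor, was low at both ages, at 0.832 and 1.73 CPM, with a log2 fold change of -1.06 ± 0.27 (edgeR FDR 0.118).

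Other fallen genes act in axons, membranes and signalling. CRMP1, which carries semaphorin signals to the growth cone, had 220.1, 194, 212 and 170.5 CPM at 108 dph and 271, 282, 308 and 325 CPM at 73 dph (log2 fold change -0.57 ± 0.09, edgeR FDR 0.0323). The highest brain of 108 dph lay well below the lowest of 73 dph.

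TMEM163, a zinc transporter of synaptic vesicles, averaged 16.5 ± 1.68 CPM at 108 dph and 24.8 ± 1.76 CPM at 73 dph (SD, n = 4 each; log2 fold change -0.59 ± 0.10). DOCK11, an activator of the GTPase CDC42, averaged 55.0 ± 0.67 CPM at 108 dph and 76.96 ± 6.8 CPM at 73 dph (log2 fold change -0.48 ± 0.07). BCAR3, an adaptor of integrin signalling, averaged 22.3 ± 1.6 CPM at 108 dph and 32.4 ± 1.36 CPM at 73 dph (log2 fold change -0.54 ± 0.08). The pseudokinase TRIB2 fell by 0.52 on the log2 scale (SE 0.10). The membrane protein LINGO3 fell by 0.41 (SE 0.07). All 5 passed the threshold, with edgeR FDR between 0.0221 and 0.046.

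Among regulators of RNA and chromatin, ZC3H18, which links the cap-binding complex to RNA decay, had 49.99, 59.5, 62.8 and 65.5 CPM at 108 dph, against 90.0, 95.2, 94.8 and 92.2 CPM at 73 dph (log2 fold change -0.65 ± 0.10, edgeR FDR 0.0221). The 4 brains of 73 dph spanned a narrower range than those of 108 dph, and no level was shared. CNOT7, a deadenylase that shortens mRNA tails, averaged 15.5 ± 0.563 CPM at 108 dph and 21.9 ± 1.44 CPM at 73 dph (edgeR FDR 0.0326). The zinc finger gene ZNF710 averaged 14.02 ± 0.495 CPM at 108 dph and 21.6 ± 2.73 CPM at 73 dph (edgeR FDR 0.0396). SCML4, of a Polycomb-related family, averaged 42.5 ± 1.85 CPM at 108 dph and 59.3 ± 6.52 CPM at 73 dph (edgeR FDR 0.0399).

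HSPA5, the chaperone of the endoplasmic reticulum, has a pair of genes here. Both were lower at 108 dph, and only the copy with more reads passed the threshold in the 12 males. The copy of HSPA5 with more reads, Nfu_g_1_006740, had 32.2, 35.4, 41.4 and 36.2 CPM at 108 dph, against 55.8, 57.2, 50.3 and 61.0 CPM at 73 dph (log2 fold change -0.63 ± 0.10, edgeR FDR 0.0264). The other, Nfu_g_1_006417, had 5.91, 6.39, 6.8 and 5.18 CPM at 108 dph, and 11.6, 7.91, 9.57 and 11.2 CPM at 73 dph; it was called in the fit of 24 fish and by DESeq2 but not in the 12 males (log2 fold change -0.73 ± 0.16, edgeR FDR 0.0793 in the 12 males and 0.0159 in the 24 fish). In neither copy did the groups overlap. Of 16 genes of endoplasmic reticulum folding and the unfolded protein response, HSPA5 was the one called in the 12 males. Over all genes 0.133% were called lower. The list's median log2 fold change was -0.08. Among members, 5 were lower and 2 higher at an unadjusted p below 0.05 (43.8%, against 14.4% of all genes and 19.0% of named genes). In 4 of the 16 all brains of 108 dph lay below those of 73 dph, and in 1 above. Over all genes these shares were 3.38% and 3.88%. XBP1, the transcription factor of that response, averaged 233 CPM at 108 dph and 194.5 CPM at 73 dph (log2 fold change 0.26 ± 0.07, edgeR FDR 0.129). The cytosolic co-chaperone DNAJA4 averaged 43.0 ± 5.29 CPM at 108 dph and 66.4 ± 7.19 CPM at 73 dph (SD, n = 4 each). Its edgeR FDR was 0.0555, and 0.0366 in the fit of 24 fish. None of 37 chaperones was called in the 12 males, with 6 at an unadjusted p below 0.05 (16.2%, against 14.4% of all genes and 19.0% of named genes). DESeq2 called 2 of the 37, where it called 2.79% of all genes.

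Several of the rises with the smallest p were in nuclear proteins. The zinc finger gene ZNF532 had 132, 139, 129 and 149 CPM at 108 dph, against 93.8, 94.5, 79.5 and 85.4 CPM at 73 dph (log2 fold change 0.64 ± 0.08, edgeR FDR 0.014). Its 4 males of 39 dph lay lower still, at 43.5 ± 1.62 CPM. PAXBP1, a partner of PAX transcription factors, had 313, 271.5, 287 and 316 CPM at 108 dph, and 214, 191, 205 and 194 CPM at 73 dph (log2 fold change 0.56 ± 0.07, edgeR FDR 0.0157), while males of 39 dph averaged 207 ± 4.65 CPM. MYSM1, which removes ubiquitin from histone H2A, averaged 424 ± 41.05 CPM at 108 dph and 284 ± 20.6 CPM at 73 dph. ELMSAN1, a scaffold of a histone deacetylase complex, averaged 58.8 ± 4.39 CPM at 108 dph and 39.5 ± 2.6 CPM at 73 dph. For both the edgeR FDR was 0.0221. CDAN1 (codanin-1), which binds a histone chaperone, averaged 33.6 ± 4.02 CPM at 108 dph and 21.7 ± 0.543 CPM at 73 dph (edgeR FDR 0.0264).

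**Figure D2:**
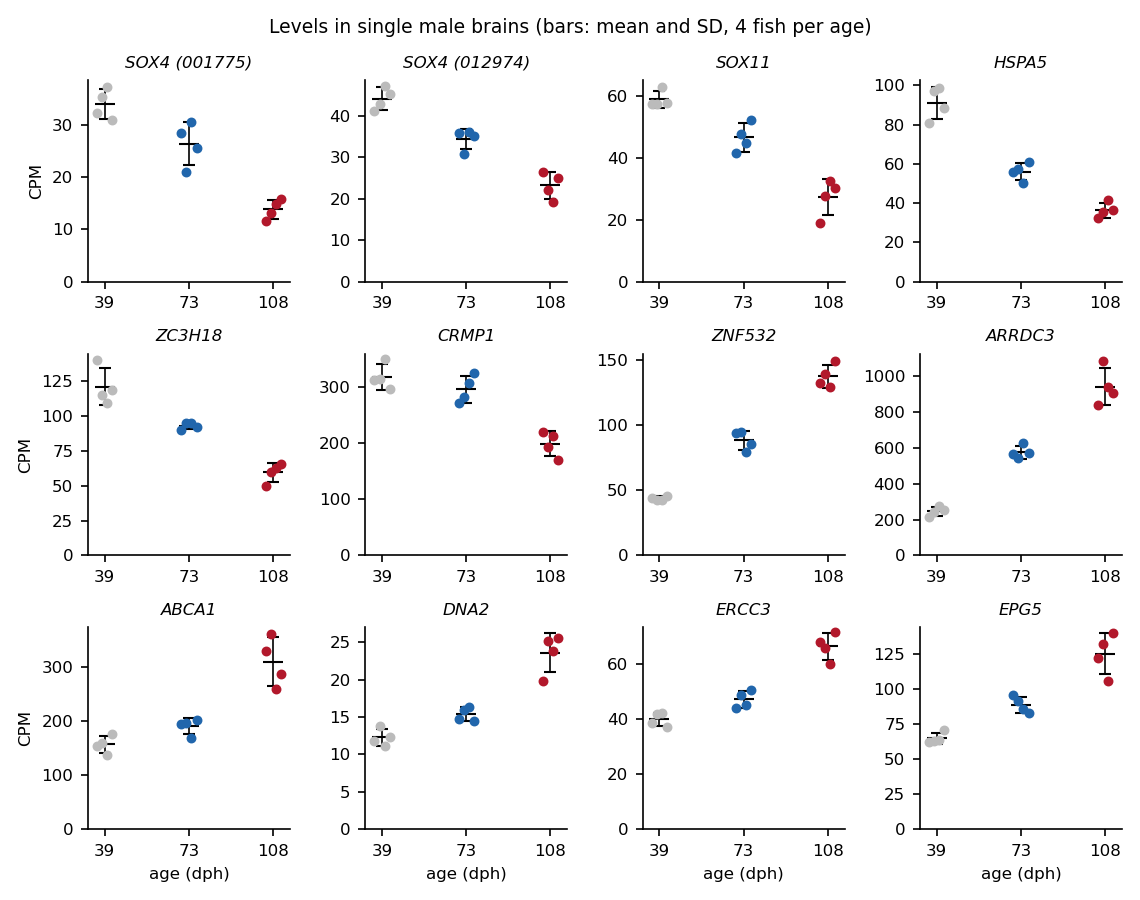
CPM of 12 called genes in single male brains (points; 4 fish at each of 39, 73 and 108 dph), with the mean and SD as bars. SOX4, SOX11, HSPA5, ZC3H18 and CRMP1 were lower and ZNF532, ARRDC3, ABCA1, DNA2, ERCC3 and EPG5 higher at 108 than at 73 dph, with no overlap of the 2 ages.

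In membrane traffic and lipid handling, ARRDC3, an arrestin that directs the sorting of membrane receptors, was the most abundant gene called. It had 839, 1082, 941 and 904 CPM at 108 dph, against 566, 542, 627 and 569 CPM at 73 dph (log2 fold change 0.71 ± 0.10, edgeR FDR 0.0221), and 247 ± 24.6 CPM at 39 dph. ABCA1, which exports cholesterol to apolipoproteins, had 330.0, 362, 259.7 and 287 CPM at 108 dph, and 194, 197, 168 and 201 CPM at 73 dph (log2 fold change 0.70 ± 0.11, edgeR FDR 0.0305). The 4 brains of 73 dph were tightly grouped and all of 108 dph lay above them. Of 13 genes of cholesterol synthesis and uptake none was called by edgeR or DESeq2, with 2 at an unadjusted p below 0.05 (15.4%, against 14.4% of all genes and 19.0% of named genes). Their median log2 fold change was -0.21.

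A gene of autophagy rose. EPG5, needed for autophagosomes to fuse with late endosomes and lysosomes, had 122, 132, 106 and 139.9 CPM at 108 dph, and 95.8, 91.05, 85.7 and 82.9 CPM at 73 dph (log2 fold change 0.49 ± 0.09, edgeR FDR 0.0448). It was 1 of 48 autophagy genes and the only one called, where 0.186% of all genes were called higher. In the list 8 were higher and 2 lower at an unadjusted p below 0.05 (20.8%, against 14.4% of all genes and 19.0% of named genes). The list's median log2 fold change was 0.08, with 35 members above 0 and 13 below, where 9689 of 18771 genes tested lay above 0. ZFYVE1 (DFCP1), which marks the membrane where autophagosomes form and was not on the list, averaged 33.6 ± 2.98 CPM at 108 dph and 22.8 ± 1.23 CPM at 73 dph (log2 fold change 0.56 ± 0.09, edgeR FDR 0.0308). Of 45 lysosomal genes, none was called in the 12 males, with 8 at an unadjusted p below 0.05 (17.8%, against 14.4% of all genes and 19.0% of named genes). LAMP1 (Nfu_g_1_005891), a main protein of the lysosomal membrane, was called in the fit of 24 fish and by DESeq2. It averaged 169 ± 13.2 CPM at 108 dph and 136 ± 6.88 CPM at 73 dph (log2 fold change 0.32 ± 0.08, edgeR FDR 0.111 in the 12 males and 0.0349 in the 24 fish).

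The genes ERCC3 and DNA2 rose. ERCC3 (XPB; Nfu_g_1_003222), the helicase of TFIIH that opens DNA for transcription and excision repair, had 68.1, 65.9, 60.2 and 71.7 CPM at 108 dph, against 44.2, 48.8, 45.3 and 50.6 CPM at 73 dph (log2 fold change 0.49 ± 0.08, edgeR FDR 0.0305). DNA2, a nuclease and helicase that trims DNA ends and flaps, had 19.8, 25.2, 23.9 and 25.5 CPM at 108 dph, and 14.8, 15.9, 16.4 and 14.5 CPM at 73 dph (log2 fold change 0.62 ± 0.11, edgeR FDR 0.0379). Each was the one gene called in its list, where 0.186% of all genes were called higher and 0.587% of named genes were called. Among 29 genes of DNA repair, 6 had all 4 brains of 108 dph above those of 73 dph (20.7%) and 2 had them below (6.90%). Over all genes these shares were 3.88% and 3.38%, and over named genes 5.20% and 4.47%. The list's median log2 fold change was 0.11. Among 27 genes of DNA replication, 4 lay above (14.8%) and 0 below, the median was -0.03, and 15 had a log2 fold change below 0. PRIM1, the catalytic primase, averaged 16.7 ± 0.266 CPM at 108 dph and 14.5 ± 1.47 CPM at 73 dph (edgeR FDR 0.337), and XRCC2, which acts in recombination, averaged 12.7 ± 1.76 CPM at 108 dph and 10.3 ± 1.69 CPM at 73 dph (edgeR FDR 0.396).

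Several further genes rose at lower levels. SMAD9, which transmits BMP signals, had 12.5, 11.6, 12.2 and 11.1 CPM at 108 dph, and 6.1, 6.26, 6.34 and 7.64 CPM at 73 dph (log2 fold change 0.84 ± 0.14, edgeR FDR 0.0336). ID3, a transcriptional target of BMP signalling, averaged 113 ± 27.8 CPM at 108 dph and 54.9 ± 4.13 CPM at 73 dph, with an edgeR FDR of 0.0503 in the 12 males and 0.00711 in the 24 fish. It was singled out after its values were seen. The neuronal calcium sensor CABP1 had 17, 15.8, 20.6 and 13.3 CPM at 108 dph, and 7.45, 10.7, 8.52 and 10.0 CPM at 73 dph (log2 fold change 0.86 ± 0.16, edgeR FDR 0.0467). LACC1, an enzyme known from human macrophages, had 16.9, 17.8, 10.7 and 19.2 CPM at 108 dph and 5.42, 9.39, 8.28 and 6.72 CPM at 73 dph (log2 fold change 1.11 ± 0.21, edgeR FDR 0.0454). The lowest brain of 108 dph was close to the highest of 73 dph for this gene.

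RNF113B and SPSB3 had levels at 39 dph that were nearer to those of 108 dph. SPSB3 averaged 19.4 ± 1.57 CPM at 39 dph, 6.23 ± 1.53 CPM at 73 dph and 13.2 ± 2.11 CPM at 108 dph (log2 fold change of 108 over 73 dph 1.08 ± 0.18, edgeR FDR 0.0323). RNF113B averaged 40.8 ± 5.69 CPM at 39 dph, 26.6 ± 1.64 CPM at 73 dph and 43.5 ± 6.44 CPM at 108 dph (log2 fold change of 108 over 73 dph 0.71 ± 0.12, edgeR FDR 0.0336). In such genes the brains of 73 dph stood apart from both other ages. The step from 39 to 73 dph, which shares the fish of 73 dph, was -1.64 for SPSB3 and -0.62 for RNF113B on the log2 scale. ZNF395, a zinc finger gene, instead averaged 85.7 ± 4.24 CPM at 39 dph, 132 ± 16.7 CPM at 73 dph and 212 ± 31.6 CPM at 108 dph (log2 fold change of 108 over 73 dph 0.68 ± 0.11, edgeR FDR 0.0336).

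Other named genes rose at moderate levels. CCDC106, a coiled-coil protein, averaged 61.2 ± 3.61 CPM at 108 dph and 41.3 ± 3.42 CPM at 73 dph (edgeR FDR 0.0221). CFAP97, of a family named for cilia, averaged 44.0 ± 6.08 CPM at 108 dph and 28.8 ± 2.98 CPM at 73 dph (edgeR FDR 0.0382). In both genes the groups did not overlap. FBXO33, an F-box protein, averaged 171 ± 9.16 CPM at 108 dph and 128 ± 4.41 CPM at 73 dph (edgeR FDR 0.0308). TESK1, a kinase of cofilin, averaged 126 ± 13.7 CPM at 108 dph and 84.9 ± 9.33 CPM at 73 dph (edgeR FDR 0.0326). SMG6, the endonuclease of nonsense-mediated decay, averaged 52.8 ± 3.07 CPM at 108 dph and 39.2 ± 2.24 CPM at 73 dph (edgeR FDR 0.0323). For these 3 genes the log2 fold changes were 0.43, 0.57 and 0.43. COQ8A, which serves coenzyme Q synthesis, averaged 51.7 ± 3.66 CPM at 108 dph and 36.5 ± 3.5 CPM at 73 dph (edgeR FDR 0.0459). PLOD1, a lysyl hydroxylase of collagen, averaged 73.5 ± 5.72 CPM at 108 dph and 51.04 ± 6.3 CPM at 73 dph (edgeR FDR 0.0499), the closest to the threshold among the 60.

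The largest folds belonged to genes of few reads or wide spread. CFAP46, a protein of motile cilia, had 2.45, 4.85, 3.3 and 1.77 CPM at 108 dph, against 12.6, 19.4, 39.8 and 34.3 CPM at 73 dph (log2 fold change -3.09 ± 0.58, edgeR FDR 0.0467). Its males of 39 dph ranged from 3.91 to 21.8 CPM, so the groups of 39 and 73 dph overlapped. DPEP2, a membrane dipeptidase, had 3.75, 1.98, 4.12 and 2.39 CPM at 108 dph, and 0.678, 0.989, 0.705 and 0.325 CPM at 73 dph (log2 fold change 2.17 ± 0.40, edgeR FDR 0.046, and 0.16 in the fit of 24 fish).

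Of the 60 genes, 17 had no name in the sources used here, 9 of them higher and 8 lower at 108 dph. Their log2 fold changes ran between 0.45 and 1.41 for the rises and between -0.94 and -0.44 for the falls. The largest rise among them was that of Nfu_g_1_010803, with 8.0, 6.66, 7.31 and 9.85 CPM at 108 dph and 2.35, 3.24, 2.47 and 3.9 CPM at 73 dph (log2 fold change 1.41 ± 0.24, edgeR FDR 0.0326). The largest falls were Nfu_g_1_001602, with a log2 fold change of -0.94 ± 0.15 (edgeR FDR 0.0305), and Nfu_g_1_014404, with one of -0.78 ± 0.11 (edgeR FDR 0.0221). Names came from tables of genes that had changed in contrasts of the study, some of them with these fish, and 0.587% of named genes against 0.148% of unnamed genes were called. Why these shares differ was not tested. ZNF532 (Nfu_g_1_001261), BCAR3 (Nfu_g_1_006596), SPSB3 (Nfu_g_1_023236), ZNF710 (Nfu_g_1_007966), CABP1 (Nfu_g_1_004562), COQ8A (Nfu_g_1_012769), CFAP46 (Nfu_g_1_005613) and DPEP2 (Nfu_g_1_003863) each shared a name with another gene, as did HSPA5 and ERCC3. Those other genes were not called in the 12 males. INSR (Nfu_g_1_002277), RAB3A (Nfu_g_1_002323) and LAMP1 also shared names. Apart from HSPA5, levels of the other genes of these names are not reported here.

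Few gene lists held a called gene. Of 29 gene lists, 5 held a called gene in the 12 males, and 24 held none. The lowest median was that of 54 genes of mitosis and cytokinesis, at -0.30 on the log2 scale, with 42 members below 0 and 12 above. None of these was called by edgeR or DESeq2, and 6 had an unadjusted p below 0.05 (11.1%, against 14.4% of all genes). CDC20, an activator of the anaphase-promoting complex, had 3.46, 3.08, 5.41 and 4.56 CPM at 108 dph and 7.35, 7.69, 5.64 and 4.88 CPM at 73 dph, so the groups overlapped (log2 fold change -0.63 ± 0.21, edgeR FDR 0.212). The spindle motor KIF11 averaged 8.78 ± 3.06 CPM at 108 dph and 11.5 ± 3.58 CPM at 73 dph (SD, n = 4 each; edgeR FDR 0.555), and the cytokinesis protein ANLN averaged 7.24 ± 2.69 CPM at 108 dph and 8.97 ± 2.32 CPM at 73 dph (edgeR FDR 0.649). For both genes the GH1-rich replicates 1 and 2 of 108 dph had the lowest levels of that age. Without those 2 fish the log2 fold change moved from -0.38 to -0.002 for KIF11 and from -0.305 to 0.08 for ANLN. That of CDC20 was then -0.35.

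Cytosolic ribosomal proteins lay slightly higher at 108 dph, short of any call. Of 71 genes, 68 had a log2 fold change above 0, with a median of 0.14, yet none was called by edgeR or DESeq2, 1 had an unadjusted p below 0.05 (1.41%, against 14.4% of all genes), and none had groups without overlap. RPLP2 (Nfu_g_1_021364), with the smallest p, had 468, 329.6, 314 and 275 CPM at 108 dph and 279.8, 313, 255 and 256 CPM at 73 dph (log2 fold change 0.33 ± 0.14, edgeR FDR 0.301). The highest of its levels was that of the GH1-rich male 108 dph replicate 1; the log2 fold change was 0.15 without that fish and 0.10 without both GH1-rich males of 108 dph. The 33 mitochondrial ribosomal proteins had a median of -0.01. Of 51 subunits of the respiratory chain and ATP synthase none was called in the 12 males, with 8 at an unadjusted p below 0.05 (15.7%, against 14.4% of all genes and 19.0% of named genes). DESeq2 called 2 of the 51, where it called 2.79% of all genes. The gene ATP5A1 of the ATP synthase (Nfu_g_1_009250) averaged 629.5 ± 32.6 CPM at 108 dph and 767 ± 22.1 CPM at 73 dph (edgeR FDR 0.0968, and 0.0146 in the 24 fish).

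**Figure D3:**
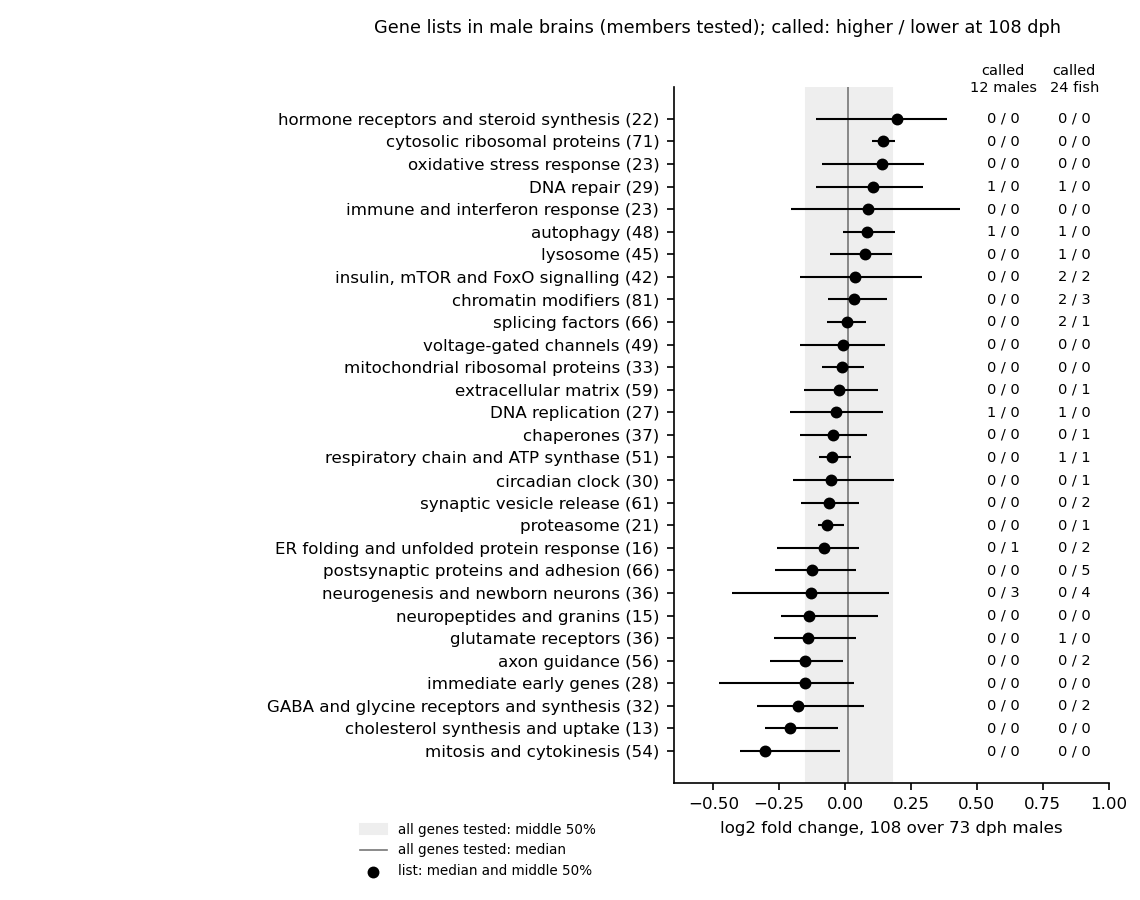
Median log2 fold change of 108 over 73 dph in males (points) and middle 50% of members (lines) for 29 gene lists, with the same over all genes tested as a grey line and band; the number of members tested is in brackets. The columns give how many members were called higher / lower at 108 dph in the fits of 12 males and of 24 fish, with the lowest median for mitosis and cytokinesis and 3 falls for neurogenesis.

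The lists of synapse and axon genes had medians below 0 and held no call in the 12 males. Of 66 postsynaptic and adhesion proteins, none was called in the 12 males, but 14 were lower and 1 higher at an unadjusted p below 0.05 (22.7%, against 14.4% of all genes and 19.0% of named genes). In the fit of 24 fish 5 fell, where 0.909% of all genes were called lower. All brains of 108 dph lay below those of 73 dph in 7 (10.6%, against 3.38% of all genes and 4.47% of named genes) and above them in 1 (1.52%, against 3.88% and 5.20%). SLITRK5, a synaptic adhesion protein, averaged 89.4 ± 8.38 CPM at 108 dph and 125 ± 19.31 CPM at 73 dph (SD, n = 4 each; log2 fold change -0.48 ± 0.10, edgeR FDR 0.0814, and 0.00642 in the 24 fish). The 2 genes named LRFN5 had log2 fold changes of -0.35 ± 0.07 and -0.43 ± 0.12, and NRXN3 (Nfu_g_1_005072), a neurexin, one of -0.31 ± 0.10, each past the threshold in the 24 fish and not in the 12 males. Of 56 axon guidance genes, none was called in the 12 males and 2 by DESeq2, which called 2.79% of all genes. At an unadjusted p below 0.05, 15 of the 56 were lower and 3 higher (32.1%, against 14.4% of all genes), and the median log2 fold change was -0.15. SEMA3F, a secreted repellent, had 29.6, 39.9, 37.4 and 33.6 CPM at 108 dph and 51.3, 47.7, 46.6 and 56.6 CPM at 73 dph (edgeR FDR 0.0702, and 0.00572 in the 24 fish). The groups of SEMA3F did not overlap.

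For transmission itself, RAB3A, a GTPase of synaptic vesicles, averaged 78.0 ± 10.3 CPM at 108 dph and 100.4 ± 3.71 CPM at 73 dph (edgeR FDR 0.124, and 0.0256 in the 24 fish). SLC32A1, which loads GABA and glycine into vesicles, averaged 98.9 ± 14.8 CPM at 108 dph and 132 ± 19.8 CPM at 73 dph (edgeR FDR 0.179, and 0.0263 in the 24 fish). Of 32 genes of GABA and glycine receptors and synthesis, 23 had a log2 fold change below 0, with a median of -0.18 and none called in the 12 males. Of the 32, 10 had an unadjusted p below 0.05 (31.2%, against 14.4% of all genes), and DESeq2 called 1, where it called 2.79% of all genes. Voltage-gated channels had a median of -0.01 over 49 genes. Neuronal markers as a list had a median of -0.075, with 4 of 17 below the unadjusted p of 0.05, all lower at 108 dph. These were 23.5%, against 14.4% of all genes and 19.0% of named genes. The part of the share of neurons in the synaptic values was not tested.

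Lists of insulin signalling, immediate early and immune genes held no call in the 12 males. Of 42 genes of insulin, mTOR and FoxO signalling, 6 were higher and 7 lower at an unadjusted p below 0.05 (31.0%, against 14.4% of all genes and 19.0% of named genes). In the fit of 24 fish 4 of the 42 were called, where 1.67% of all genes were. The insulin receptor gene INSR had 54.0, 58.3, 54.7 and 53.5 CPM at 108 dph, and 43.0, 44.0, 41.5 and 42.1 CPM at 73 dph, without overlap, just short of the threshold in the 12 males (log2 fold change 0.37 ± 0.07, edgeR FDR 0.0536, and 0.0114 in the 24 fish). The genes named PIK3R3, a regulatory subunit of PI3 kinase, went opposite ways, with log2 fold changes of -0.41 ± 0.08 for Nfu_g_1_020146 and 0.41 ± 0.11 for Nfu_g_1_014255, both past the threshold in the 24 fish and not in the 12 males. Immediate early genes, which neural activity and handling switch on, had a median log2 fold change of -0.15 over 28 genes with none called by edgeR or DESeq2 and 3 at an unadjusted p below 0.05 (10.7%, against 14.4% of all genes). JUN (Nfu_g_1_020727) averaged 35.5 ± 4.55 CPM at 108 dph and 48.4 ± 5.4 CPM at 73 dph (edgeR FDR 0.207). Of 23 immune genes none was called by edgeR or DESeq2. At an unadjusted p below 0.05, 5 were higher and 0 lower (21.7%, against 14.4% of all genes and 19.0% of named genes). CD74, the invariant chain of antigen presentation, averaged 15.9 ± 7.1 CPM at 108 dph and 6.96 ± 2.5 CPM at 73 dph (edgeR FDR 0.203).

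Genes tied to sex and hormones were not called. Of 22 genes of hormone receptors and steroid synthesis, 5 were higher and 2 lower at an unadjusted p below 0.05 (31.8%, against 14.4% of all genes and 19.0% of named genes). Their median log2 fold change was 0.20. ESR1 (Nfu_g_1_018712), an estrogen receptor, averaged 12.9 ± 3.75 CPM at 108 dph and 8.13 ± 0.81 CPM at 73 dph (edgeR FDR 0.187), and its 2 GH1-rich brains of 108 dph had the highest levels, 15.2 and 16.9 CPM. The aromatase gene CYP19A1 with more reads, Nfu_g_1_007967, had 51.9, 55.0, 36.0 and 33.3 CPM at 108 dph, and 88.6, 28.7, 29.8 and 28.6 CPM at 73 dph; 1 fish of 73 dph lay far above its fellows, and the log2 fold change was 0.00 ± 0.36 (edgeR FDR 0.998). The other copy of CYP19A1, Nfu_g_1_016264, was near 0 at both ages, with means of 0.572 and 1.49 CPM. SYBU, beside the sex-determining locus in this species, averaged 321 ± 65.1 CPM at 108 dph and 266 ± 65.5 CPM at 73 dph (edgeR FDR 0.562). FTL, the ferritin light chain, had 757, 449, 453 and 476 CPM at 108 dph and 452, 457, 459 and 443 CPM at 73 dph (edgeR FDR 0.477), its high value lying in male 108 dph replicate 1, the shallowest of these 8 libraries and a GH1-rich brain, and leaving it out gave a log2 fold change of 0.02. CSMD3 averaged 9.71 ± 1.45 CPM at 108 dph and 11.1 ± 3.26 CPM at 73 dph (edgeR FDR 0.695).

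The female brains, which share no fish with the males, gave the same contrast a second set of values. Of the 60 genes called in males, 55 had the same sign in females, 32 of the 35 rises and 23 of the 25 falls, against 65.9% of all genes tested in both sexes. In 41 of them the female difference had the same sign and an unadjusted p below 0.05, against 13.6% of all genes. The females alone gave 134 calls of 18824 genes (0.712%; 55 higher, 0.292%, and 79 lower, 0.42%), and 12 were shared, 20.0% of the male calls and 8.96% of the female calls. Among the shared were SOX4 (Nfu_g_1_001775), SOX11, HSPA5 (Nfu_g_1_006740), ZC3H18, BCAR3, ARRDC3, ABCA1, CDAN1, EPG5, FBXO33 and the unnamed Nfu_g_1_014404. HSPA5 fell by 0.94 in females (SE 0.14, edgeR FDR 0.0169), and ARRDC3 had a female log2 fold change of 1.09 ± 0.14 (edgeR FDR 0.0119). The median female log2 fold change was 0.34 for the male rises and -0.32 for the male falls, against 0.59 and -0.58 in the males by whose values the genes were chosen. In 54 of the 60 the change was smaller in females. Both sexes were collected at the same ages, so they share whatever went with the time of collection.

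**Figure D4:**
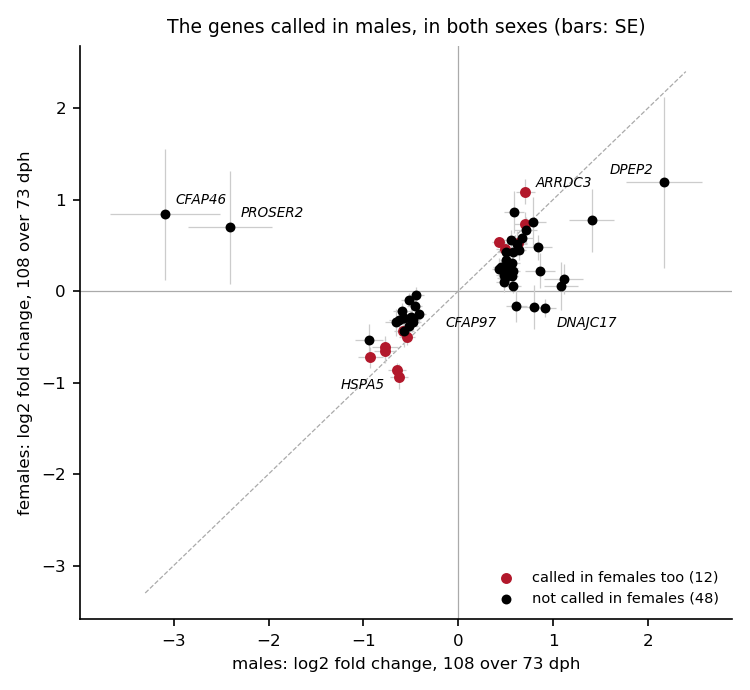
Log2 fold change of 108 over 73 dph in males (x axis) and females (y axis) for the 60 genes called in males, with SE bars; red points were also called in females. Of the 60 points, 55 lie in the quadrants of equal sign, and DNAJC17, CFAP97, CFAP46 and PROSER2 are among the 5 that do not.

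The difference between the sexes was tested over all 24 fish, and 1 gene of 19358 (0.00517%) passed, with 983 at an unadjusted p below 0.05. That gene, DNAJC17, a J-domain protein linked to splicing, had 83.5, 68.9, 63.4 and 84.8 CPM in males of 108 dph, against 43.7, 43.4, 34.4 and 38.3 CPM in males of 73 dph. Females had 49.1, 46.6, 49.5 and 42.3 CPM at 108 dph, against 49.99, 47.5, 54.1 and 61.6 CPM at 73 dph. Only the males of 108 dph stood out, above every other fish of both later ages. The log2 fold change was 0.91 ± 0.12 in males (edgeR FDR 0.0221) and -0.19 ± 0.09 in females (edgeR FDR 0.358), and the male step exceeded the female step by 1.09 ± 0.16 on the log2 scale (edgeR FDR 0.0135). The call was lost when male 73 dph replicate 4, male 108 dph replicate 4, or female 108 dph replicate 2 or 4 was left out. CFAP46 and PROSER2, which fell in males with log2 fold changes of -3.09 and -2.40, had values of 0.84 ± 0.72 and 0.70 ± 0.62 in females. For neither did the difference pass the threshold (edgeR, unadjusted p 0.000509 and 0.000824). Nor did it for MYSM1, with 0.57 in males and 0.06 ± 0.08 in females (edgeR, unadjusted p 0.00021). Of the 60 genes called in males, chosen by their male values, 24 had an unadjusted p below 0.05 for the difference.

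**Figure D5:**
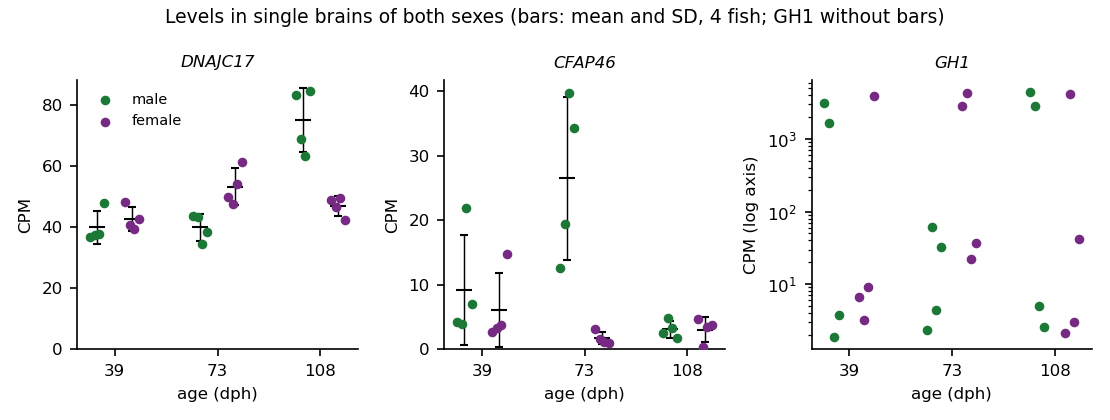
CPM of DNAJC17, CFAP46 and GH1 in single brains of males and females at 39, 73 and 108 dph (points), with the mean and SD of 4 fish as bars for DNAJC17 and CFAP46 and a log axis for GH1. The males of 108 dph lie between 63.4 and 84.8 CPM for DNAJC17, above all other fish, while GH1 splits the fish of several groups into rich and poor brains.

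Across all genes no leading component separated 108 from 73 dph beyond the spread between fish. Over the 12 males the first principal component held 21.9% of the variance, with scores of 23.4 ± 9.03 at 108 dph and 13.5 ± 13.9 at 73 dph (SD, n = 4 each), while males of 39 dph stood at -36.9 ± 8.24. The exact two-sided permutation test between 108 and 73 dph gave p = 0.286 for this component, and p between 0.171 and 0.657 for the next 3, with 0.457 to 0.657 after adjustment over the 4 components. The second component held 15.6% of the variance, with scores of 15.9 ± 31.8 at 108 dph and -14.4 ± 12.2 at 73 dph. Its highest scores were those of the GH1-rich males, 47.25 and 34.23 at 108 dph and 24.83 and 7.30 at 39 dph. The GH1-poor males reached at most 6.43. The part of GH1-rich brains in this component was not tested. The smallest p that 4 against 4 fish allow is 0.0286.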

How the data were processed

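Raw read counts per gene were used as the authors deposited them. Per the labels and the study's methods, stranded mRNA libraries were sequenced for 51 cycles, converted with bcl2fastq 1.8.4, aligned with TopHat2 2.1.0 at 1 place per read and counted with featureCounts 1.5.0, so near-identical copies may gain or lose reads. Gene lengths were recovered from the RPKM values, which the authors computed from these counts and deposited. The 3759 genes without reads were among 26739. Counts of the 12 males were fitted by age in edgeR 4.0.16 (R 4.3.3) with TMM scaling, filterByExpr at a minimum count of 10, and the quasi-likelihood test with Benjamini-Hochberg adjustment at an FDR of 0.05; CPM use TMM-scaled totals. DESeq2 1.42.0, other filters and scalings, fits of 8 males and of 24 fish, a block for fish number, a length trend and leaving out each fish were alternatives. Fits handling GH1 or leaving out the 2 shallowest libraries were added after seeing the data. Gene names are human ortholog names in the study's tables and cover 7368 genes, 2122 of which share a name; no sequence was used. Genes were named as the largest changes among called genes, the list members with the smallest p, and genes the study discusses. Others complete the called genes, or were chosen outside these rules with their values known. Not all of the latter are marked where they appear. Among them are DLL1, NRXN3, the HSPA5 gene with fewer reads and the PIK3R3 gene that rose. Members and gene lists were chosen with earlier results of these data known. Scripts were tested on simulated data. The unnamed called genes are mostly given by counts and ranges, and 1 named called gene is not reported here.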

Additional observations from a re-analysis of the deposited data

Results flagged for a closer look

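The difference between the late steps of the sexes passed the threshold for DNAJC17, whose male step exceeded the female step by 1.09 on the log2 scale (edgeR FDR 0.0135). In 4 groups of 4 fish, 1 fish lay far from the other 3, by Dixon's ratio of gap to range above 0.829; 90 groups were examined, and chance gives about 1 such group in 20. SMAD9 had 7.64 CPM in 1 male of 73 dph, against 6.34 CPM in the next. CYP19A1 (Nfu_g_1_007967) had 88.6 CPM in 1 male of 73 dph, with 29.8 CPM in the next. CYP19A1 (Nfu_g_1_016264) had 1.37 CPM in 1 male of 108 dph, with 0.36 CPM in the next. FTL had 757 CPM in 1 male of 108 dph, with 476 CPM in the next.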

How the results depend on the processing

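Of 60 calls in edgeR, DESeq2's size factors gave 60, no filter 54, the study's filter 61 and a removed length trend 69. Other settings moved the count, to 509 in DESeq2, 323 with 24 fish, 265 with 24 fish less the 2 shallowest libraries, and 0 with the 8 males only (2174 genes at an unadjusted p below 0.05). An FDR of 0.01 left 0. Without the 2 GH1-rich males of 108 dph 2 genes were called, without the 4 GH1-rich males 3, and with GH1 as a covariate 4, all chosen after seeing the data. Leaving out 1 fish gave 0 to 104. Each library is 1 fish, and the labels name no pairing of the males by fish number. The deviations of the 2 same-numbered pairs correlated at 0.07 and 0.06. Pairs of unlike number ran from -0.22 to 0.16, so these values do not decide whether the number matters. A block for fish number gave 0 calls (2011 at an unadjusted p below 0.05). For the sex difference, 1 call became 5 in DESeq2 and 0 to 2 with 1 fish left out. With the 1000 most variable genes the difference of the first component turned to -12.5. Among genes, GH1 turned from 6.19 in the main fit to -0.58 with the block for fish number. It was -2.71 without its 2 or 4 rich males and -0.14 as its own covariate. These last fits select fish or adjust by GH1 itself, so the change of GH1 in them was fixed in advance. CYP19A1 (Nfu_g_1_007967), near 0, had -0.000349 with DESeq2's size factors, -0.00856 with no filter, -0.00546 with 24 fish, -0.00792 less the 2 shallowest, -0.33 and -0.34 without the 2 and 4 GH1-rich males, -0.16 with the covariate, and -0.16 to 0.60 with 1 fish left out. ANLN had 0.0836 and 0.0775 without the 2 and 4 GH1-rich males. Apart from the change of GH1 in fits that use its own level, the cause was not tested in any of these.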
